A study of Homo sapiens with 6 samples.

Results

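The genes described here encode the 3 parvins (PARVA, PARVB and PARVG) and 7 proteins that bind them or act with them at focal adhesions (ILK, LIMS1, LIMS2, RSU1, FERMT2, TLN1 and PXN). They were found by their gene names, and all 10 were present among the 33841 Ensembl genes listed for 6 RNA-seq libraries of LN229 cells, an established human glioblastoma cell line. The family was chosen by the measured fall of PARVB counts between the genotypes, so the values of PARVB are given as a description without a test. The other 9 genes were listed for their relation to PARVB, to ask whether its loss was met by other parvins or by partners of ILK. WT cells (genotype label WT-PARP3+/+) were compared with cells whose PARP3 gene was deleted in part by CRISPR/Cas9 (PARP3-/-). Each genotype had 3 libraries, described as biological replicates without saying what was grown separately, so p-values measure the spread between these libraries. Both genotypes were proliferating cultures grown in MEM with fetal bovine serum and gentamicin, without further treatment. The methods describe knockout lines grown from single sorted cells and parental WT cells, so the effect of PARP3 loss and that of the clone cannot be told apart. Which LN229 clone was sequenced is not given in the sources used here.

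Focal adhesions are plaques through which integrins in the cell membrane hold on to the matrix outside and to actin filaments inside. ILK, a pseudokinase, forms a ternary complex with a PINCH protein (LIMS1 or LIMS2) and a parvin, and this complex joins the integrin tail region to actin. Talin and kindlin bind the integrin tails and activate the receptor, while paxillin is a scaffold that recruits kinases and other adaptors. PARVA and PARVB bind ILK through the same domain and are found together in many tissues, whereas PARVG is known mainly from blood cells.

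Gene counts per library summed to between 29692065 and 46010369. The limit used here for a gene with no reads was 3 counts, or 0.0673 to 0.0996 CPM (counts scaled to library size), which covers counting error only. PARP3 itself overlapped between the genotypes, with 1273, 942 and 995 counts in WT and 574, 1004 and 736 in PARP3-/- replicates 1, 2 and 3. Its log2 fold change was −0.42 (adjusted p = 0.307 in edgeR's quasi-likelihood test, 0.0469 with the replicate number as a block). In DESeq2 the adjusted p was 0.263, and 0.366 with the block. The counts are per gene, so which exons they came from is unknown and they are no full check of the knockout. Of 12 glial and glioma markers, 9 were above 1 CPM on average, with NES and VIM among them, while GFAP, SOX9 and AQP4 lay at 0 to 17 counts per library. Among them S100B was lower in PARP3-/- cells (log2 fold change −1.06, adjusted p = 0.0256 in edgeR). FABP7 (−1.29, adjusted p = 0.0577 in edgeR, 0.000423 in DESeq2) and OLIG2 (−0.53, 0.0800 and 0.0148) passed in DESeq2 but not in edgeR. The part of these markers in the results below was not tested.

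PARVB (ENSG00000188677) encodes beta-parvin, an ILK-binding adaptor with calponin homology domains, and lies on the forward strand of chromosome 22 from 43999211 to 44172949 (GRCh38). RefSeq places 2 start sites inside this interval, and the sequence around each is shown as the annotated promoters of the gene whose counts fell. Which start the counted reads came from is unknown. Each window holds 250 bases before the start and 50 from it on, 5′ to 3′, with CpG dinucleotides in capitals.
PARVB upstream start, chr22:44024052-44024351, forward strand, GRCh38.p14: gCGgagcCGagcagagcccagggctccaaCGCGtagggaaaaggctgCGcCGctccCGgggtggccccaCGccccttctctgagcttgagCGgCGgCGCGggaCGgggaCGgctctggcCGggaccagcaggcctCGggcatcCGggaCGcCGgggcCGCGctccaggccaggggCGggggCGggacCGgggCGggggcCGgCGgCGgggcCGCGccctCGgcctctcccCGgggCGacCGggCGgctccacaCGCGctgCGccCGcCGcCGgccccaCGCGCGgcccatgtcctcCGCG
PARVB downstream start, chr22:44068856-44069155, forward strand, GRCh38.p14: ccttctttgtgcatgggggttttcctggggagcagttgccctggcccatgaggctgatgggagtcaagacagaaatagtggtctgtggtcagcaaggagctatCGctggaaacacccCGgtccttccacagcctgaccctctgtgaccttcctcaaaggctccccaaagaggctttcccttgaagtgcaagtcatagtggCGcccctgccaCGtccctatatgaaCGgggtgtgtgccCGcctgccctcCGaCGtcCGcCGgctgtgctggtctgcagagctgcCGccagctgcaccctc
The upstream window held 46 CpG, more than 97.1% of the 35116 RefSeq windows of this length, whose median is 14. The downstream window held 11, more than 45.3% of them. CG reads the same on both strands, so the count is that of either strand. RefSeq windows were matched for 9 of the 10 genes, and that of PARVA was not.

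The PARVB counts were 99, 120 and 114 for WT replicates 1, 2 and 3, and 9, 6 and 8 for PARP3-/-. Scaled by library size, this was 2.71, 2.86 and 2.78 CPM in WT and 0.299, 0.135 and 0.212 CPM in PARP3-/- cells. The groups did not overlap, and every PARP3-/- library kept PARVB above the limit of 3 counts. The fitted log2 fold change was −3.73 (95% interval −4.35 to −3.11). In bulk RNA, fewer cells that express PARVB and less PARVB RNA per cell cannot be told apart. The annotated intervals of PARVB and SAMM50 share 11321 bases on the same strand, and reads that fall on exons of both are counted for neither.

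PARVG (ENSG00000138964), which encodes gamma-parvin, starts 6 bases beyond the annotated end of PARVB on the same strand and runs from 44172956 to 44219533. Its counts were 14, 16 and 12 for WT replicates 1, 2 and 3, and 0 for all PARP3-/- libraries. PARVG was therefore at least 3.54-fold lower in PARP3-/- cells, taking 3 counts in the shallowest PARP3-/- library as the limit (quasi-likelihood test of edgeR, adjusted p = 0.0114). With its PARP3-/- counts at 0, PARVG entered the test only through its WT counts. Its p-value is therefore not taken as support for the fall. Without WT replicate 3 the adjusted p was 0.0592. The counts are per gene, so which transcript start the PARVG reads came from is unknown. Among 5 matched markers of blood cells, PTPRC was at 0 to 4 and CD53 at 1 to 5 counts per library. LCP1 had 258 to 457 and LAPTM5 43 to 123. The 5 summed to 8.10 to 14.1 CPM in WT and 11.7 to 17.0 CPM in PARP3-/- libraries. LCP1 and LAPTM5 did not pass in edgeR (adjusted p = 0.686 and 0.336) but were higher with the replicate block (0.00875 and 0.0186). With the block in DESeq2 LCP1 passed (adjusted p = 0.0278) and LAPTM5 did not (0.161). Their part in the PARVG result was not tested.

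PARVA (ENSG00000197702, chromosome 11, 12377185 to 12530801), which encodes alpha-parvin, was by far the most abundant parvin. It measured 74.9, 82.7 and 78.1 CPM in WT replicates 1, 2 and 3 and 83.1, 86.6 and 83.4 CPM in PARP3-/- replicates. All PARP3-/- values lay above all WT values, but only by a narrow margin, and 10.8% of the 17144 tested genes also had all PARP3-/- values on top. The log2 fold change of 0.10 (standard error 0.07, 95% interval −0.07 to 0.27) did not pass the test, with an adjusted p of 0.587 in edgeR, 0.153 with the replicate block and 0.685 in DESeq2. Per same-numbered pair, the log2 difference was 0.15, 0.07 and 0.09.

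**Figure D1:**
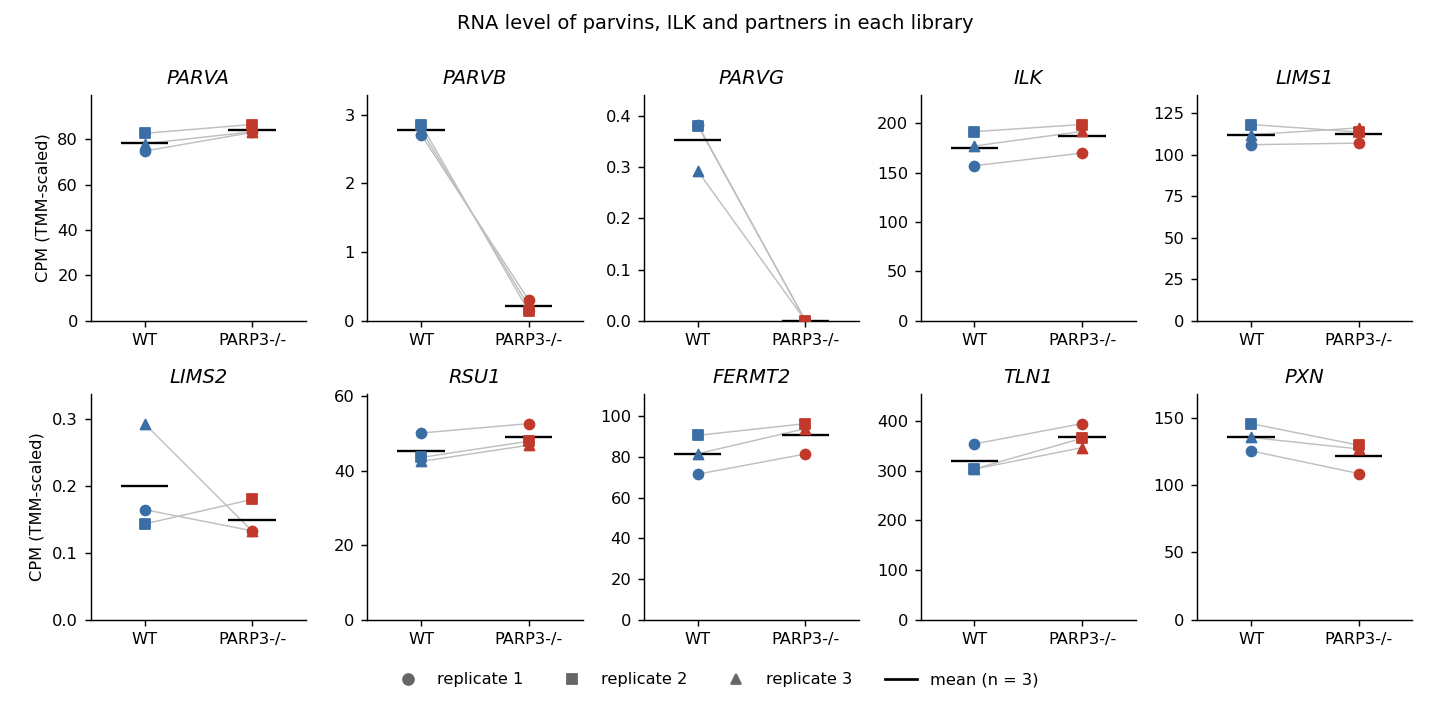
Level of each of the 10 genes in CPM (scaled by library size with TMM, axes from 0) in WT (blue) and PARP3-/- (red) libraries. Marker shapes give the replicate, grey lines join libraries of the same number and bars show the mean of 3. PARVB and PARVG fall to or near 0 in PARP3-/- libraries, while the other 8 genes stay near their WT level.

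Levels of different genes were compared per kilobase of the canonical transcript (GENCODE 44), in CPM per kb. On this scale PARVA was at 9.11 ± 0.456 in WT (SD, n = 3), PARVB at 0.516 ± 0.0138 and PARVG at 0.101 ± 0.0149. PARVB thus made up 5.18% to 5.41% of the summed parvin level in WT libraries and 0.248% to 0.572% in PARP3-/- libraries. In CPM not divided by length, its share was 3.33% to 3.48% in WT and 0.155% to 0.358% in PARP3-/- libraries. The 3 parvins together measured 9.29, 10.2 and 9.66 CPM per kb in WT and 9.69, 10.1 and 9.71 in PARP3-/- replicates 1, 2 and 3. The genotypes overlapped, and the log2 ratio of the mean sums was 0.014. The loss of PARVB, 0.476 CPM per kb, corresponded to 5.23% of the WT level of PARVA, or 3.27% in CPM not divided by length. The change of PARVA was 7.38%, with a 95% interval from −4.57% to 20.8%, so a rise of PARVA as large as the PARVB loss lay inside the interval, as did no change. A compensating change of this size was therefore not detectable with these libraries.

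**Figure D2:**
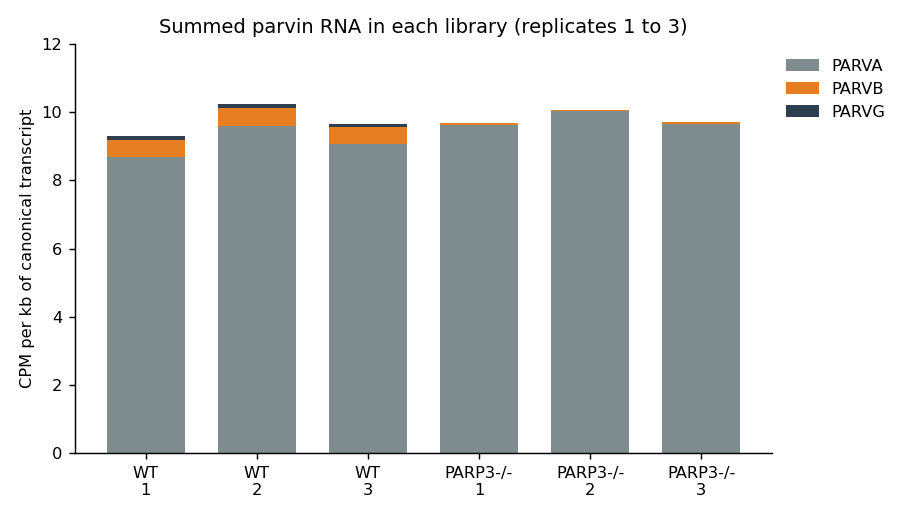
Stacked parvin RNA in CPM per kb of canonical transcript for each WT and PARP3-/- library, with PARVA in grey, PARVB in orange and PARVG in dark blue. The sums lie between 9.29 and 10.2 in both genotypes, while the orange and dark blue parts nearly vanish in PARP3-/- libraries.

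ILK (ENSG00000166333, chromosome 11, 6603708 to 6610874), the hub to which both PINCH and parvin bind, was the highest of the 10 genes per kilobase. It measured 157, 192 and 177 CPM in WT and 170, 199 and 192 CPM in PARP3-/- replicates 1, 2 and 3. The groups overlapped, with a log2 fold change of 0.09 (95% interval −0.16 to 0.34, adjusted p = 0.786 in edgeR). The level of PARVA relative to ILK was 0.0972, 0.0880 and 0.0899 in WT and 0.0997, 0.0888 and 0.0886 in PARP3-/- libraries, on the scale per kilobase. This ratio, which does not depend on library scaling, differed by 0.0095 on the log2 scale (two-sided exact permutation test over the 6 libraries, p = 0.8, where 0.1 is the smallest p possible).

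LIMS1 (ENSG00000169756, chromosome 2, 108534355 to 108687246) encodes PINCH-1, the adaptor of LIM domains that binds the ankyrin repeats of ILK. Its 106, 118 and 112 CPM in WT and 107, 114 and 116 CPM in PARP3-/- replicates 1, 2 and 3 overlapped almost fully. The log2 fold change was 0.0018 (95% interval −0.18 to 0.18, adjusted p = 0.996 in edgeR). LIMS1 has near-identical copies elsewhere in the genome, so its counts are uncertain. The second PINCH gene, LIMS2 (ENSG00000072163), had 6, 6 and 12 counts in WT and 4, 8 and 5 in PARP3-/- libraries, too few to enter the test. RSU1 (ENSG00000148484), which encodes the Ras suppressor that docks on PINCH-1, measured 50.1, 43.5 and 42.5 CPM in WT and 52.6, 47.9 and 46.8 CPM in PARP3-/- replicates. It was higher in PARP3-/- cells in every same-numbered pair, but the groups overlapped and the test was not passed (log2 fold change 0.11, 95% interval −0.11 to 0.33, adjusted p = 0.662 in edgeR).

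With all 6 libraries in edgeR, FERMT2, TLN1 and PXN were the members whose call depended on whether the replicate number was in the model. FERMT2 (ENSG00000073712), which encodes kindlin-2, measured 71.5, 90.5 and 81.5 CPM in WT and 81.4, 96.3 and 93.8 CPM in PARP3-/- replicates 1, 2 and 3. FERMT2 had a log2 fold change of 0.16 (95% interval −0.11 to 0.42, adjusted p = 0.599 in edgeR), and with the replicate block the adjusted p was 0.0385. Replicate 1 was the lowest in both genotypes and the groups overlapped, while the difference within each pair was positive.

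TLN1 (ENSG00000137076), which encodes talin-1, the main link of integrin tails to actin, measured 354, 303 and 303 CPM in WT and 394, 365 and 346 CPM in PARP3-/- replicates 1, 2 and 3. Without the block, TLN1 had a log2 fold change of 0.20 (95% interval −0.03 to 0.44, adjusted p = 0.394 in edgeR). With the replicate block it was 0.21 (standard error 0.05, adjusted p = 0.0157), and with the block in DESeq2 the adjusted p was 0.00709. TLN1 also passed in edgeR without the block when both replicate 1 libraries were left out (log2 fold change 0.23, adjusted p = 0.0223). The pairs differed by 0.16, 0.27 and 0.19 on the log2 scale.

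PXN (ENSG00000089159) encodes paxillin, and went the other way. It measured 125, 146 and 135 CPM in WT and 109, 130 and 127 CPM in PARP3-/- replicates 1, 2 and 3, with pair differences of −0.21, −0.17 and −0.09 on the log2 scale. Without the block, PXN had a log2 fold change of −0.15 (adjusted p = 0.544 in edgeR), and with it −0.16 (adjusted p = 0.0402). For FERMT2 and PXN the block in DESeq2 gave adjusted p of 0.125 and 0.116, so their calls rested on the edgeR fit with the block.

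**Figure D3:**
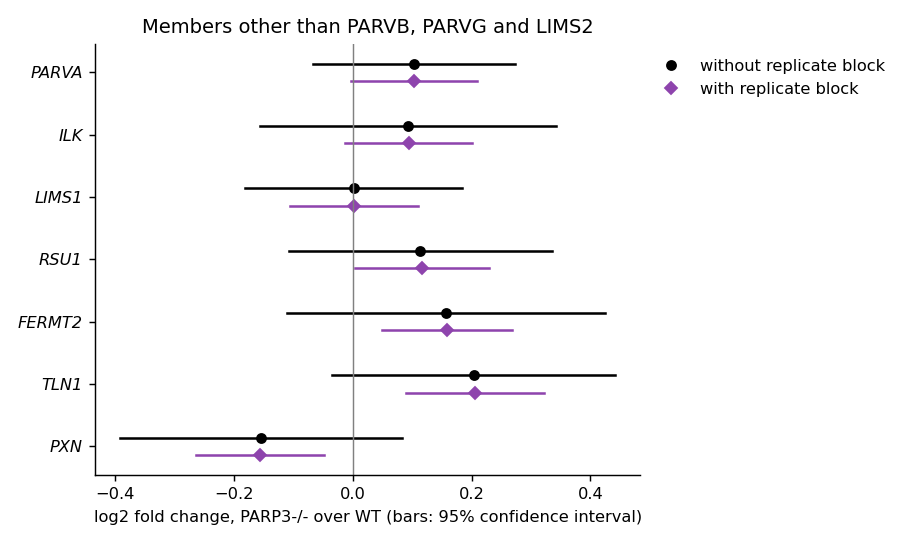
Log2 fold change of PARP3-/- over WT with its 95% interval for the 7 tested genes other than PARVB and PARVG, from edgeR without (black circles) and with (purple diamonds) the replicate block. Every estimate lies between −0.16 and 0.21, and with the block the intervals of FERMT2, TLN1, RSU1 and PXN leave 0, RSU1 only before adjustment over all genes.

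Leaving out PARVB, 8 of the 9 other genes had enough counts to be tested, and PARVG had them only through WT. Of the 7 besides PARVG, 0 were lower at an adjusted p under 0.05 in edgeR, against 3.33% of all 17144 tested genes, and 0 were higher, against 1.36%. DESeq2 also called 0 of the 7 in either direction, against 5.09% and 3.15% of all genes. At an unadjusted p under 0.05 in edgeR, which 16.3% of all tested genes reached, there were 0 of the 7. With the replicate block, 1 was lower (PXN) and 2 higher (FERMT2 and TLN1), against 12.5% and 11.8% of all genes. With the block in DESeq2, TLN1 alone was higher and 0 were lower, against 7.55% and 7.93%. The median log2 fold change of the 8, PARVG included, was 0.098, against −0.0062 over all tested genes.

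In WT cells the order per kilobase ran from ILK (99.7 ± 9.87 CPM per kb, SD, n = 3) to TLN1 (37.1 ± 3.38), PXN (26.0 ± 1.94), LIMS1 (25.7 ± 1.39), FERMT2 (24.7 ± 2.90), RSU1 (12.2 ± 1.11), PARVA, PARVB, PARVG and LIMS2 (0.0838 ± 0.0339). PXN, LIMS1 and FERMT2 did not differ beyond their spread, nor did PARVG and LIMS2. The other neighbours in this order had no overlapping WT libraries. In log2 CPM over the 6 libraries, the tested genes with the pattern most like PARVB were DTX4 (Pearson r = 0.999), FAM149A (0.999), SLC4A7 (0.998), ANKRD30A (0.998) and FAM213A (0.998), a likeness set by the difference between genotypes. Those most like PARVA were SEPT10 (0.996), ZNF486 (0.996), C15orf41 (0.995), FAM104A (0.990) and AC090229.1 (0.989). These correlations describe 6 libraries that share replicate number in pairs.

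The neighbours of PARVB on chromosome 22 were examined because PARVG adjoins it. Within 500 kb of PARVB, 7 other genes were tested. KIAA1644 (ENSG00000138944, reverse strand, 44243667 to 44312851), which starts its interval 70717 bases beyond the end of PARVB, measured 54.1, 60.8 and 66.7 CPM in WT and 26.0, 30.5 and 28.3 CPM in PARP3-/- replicates 1, 2 and 3. The genotypes did not overlap, which held in this direction for 12.0% of all tested genes. KIAA1644 had a log2 fold change of −1.10 (95% interval −1.35 to −0.85, adjusted p = 0.00210 in edgeR), and it passed in all 6 fits with 1 library left out (adjusted p 0.00150 to 0.0182).

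PRR5 (ENSG00000186654), which encodes a subunit of the kinase complex mTORC2, lies 495597 bases beyond the end of PARVB. It had 24, 21 and 16 counts in WT and 3, 0 and 4 in PARP3-/- libraries, with a log2 fold change of −2.96 (standard error 0.64, adjusted p = 0.0497 in edgeR). It also entered the test through its WT counts, and leaving out any 1 library raised the adjusted p to between 0.0787 and 0.136. PNPLA3, a lipase of lipid droplets on the other side of PARVB, measured 19.0 ± 0.381 CPM in WT and 14.9 ± 0.587 CPM in PARP3-/- cells (SD, n = 3), a log2 fold change of −0.35 (adjusted p = 0.0583 in edgeR, 0.00311 with the replicate block and 0.00712 in DESeq2).

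SAMM50, a mitochondrial outer membrane protein whose gene overlaps the start of PARVB, showed no such difference. It measured 71.7, 87.3 and 86.3 CPM in WT and 69.0, 81.4 and 78.1 CPM in PARP3-/- replicates, and its log2 fold change was −0.10 (adjusted p = 0.760 in edgeR). RTL6, which lies between KIAA1644 and PRR5, had a log2 fold change of −0.17 (adjusted p = 0.461 in edgeR, 0.0281 with the replicate block and 0.0954 with the block in DESeq2). Z97055.2 had one of 0.21 (adjusted p = 0.876 in edgeR). Around PARVB, a large fall was seen for PARVG, KIAA1644 and PRR5, while SAMM50 and RTL6 stayed within 0.17 of 0 on the log2 scale. By gene start, PARVB, PARVG and KIAA1644 were consecutive tested genes, with SAMM50 before them and RTL6 between KIAA1644 and PRR5. PARVG, KIAA1644 and PRR5 were lower at an adjusted p under 0.05 in edgeR, against 3.33% of all tested genes. PNPLA3 (−0.35) and Z97055.2 (0.21) belonged to neither set. PARVG and PRR5 entered the test through their WT counts, which leaves KIAA1644 as the large fall without that limit. The 2 transcripts listed inside PARVB on the same strand had few counts, with AL033543.1 at 4, 2 and 1 in WT and 0 in each PARP3-/- library, and AL031595.3 at 9, 6 and 6 in WT and 1, 1 and 4 in PARP3-/- libraries.

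**Figure D4:**
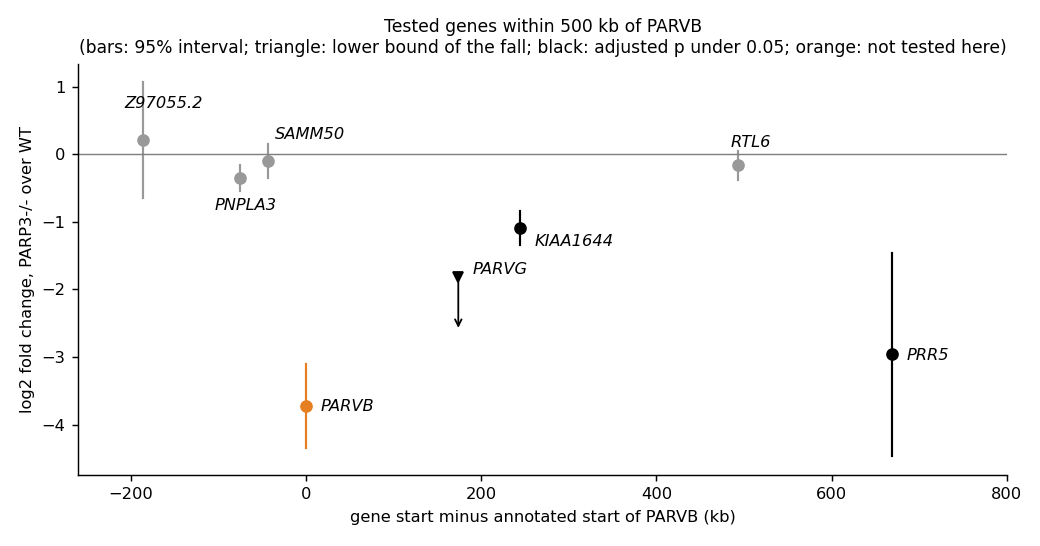
Log2 fold change of PARP3-/- over WT for the tested genes within 500 kb of PARVB against the distance of each gene's lower coordinate from that of PARVB in kb. Bars give the 95% interval, black marks an adjusted p under 0.05, orange marks PARVB, which was not tested, and the triangle with an arrow marks the bound for PARVG. SAMM50 and RTL6 lie near 0 between or beside genes that are lower.

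Beyond the 10 genes, 89 other adhesion genes in 6 lists were followed, of which 85 were matched and 80 tested. In edgeR 4 were lower and 2 higher at an adjusted p under 0.05, against 3.33% and 1.36% of all tested genes, and 2 of the 4 (TNS1 and ELMO1) entered the test only through their WT counts. An unadjusted p under 0.05 was found for 22, against 16.3% of all genes. With the replicate block 10 were lower and 21 higher, against 12.5% and 11.8% of all genes, and with DESeq2 5 and 5, against 5.09% and 3.15%. These shares of all genes are also those to read the counts of each list against. Of the 80, 24 had a log2 fold change below 0 and 56 above, with a median of 0.097, while of all 17144 tested genes 8790 lay below 0 and 8354 above, with a median of −0.0062.

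Among 15 genes listed as partners of parvins and ILK, not all of them direct binders, 1 fell and 1 rose, and all 15 were tested. ARHGEF6 encodes alpha-PIX, an exchange factor for Rac1 and Cdc42 that binds beta-parvin. It had 402, 276 and 401 counts in WT and 122, 118 and 111 in PARP3-/- replicates 1, 2 and 3, or 9.12 ± 2.29 and 3.21 ± 0.739 CPM (SD, n = 3), without overlap (log2 fold change −1.51, standard error 0.25, adjusted p = 0.0179 in edgeR). Its adjusted p was 0.0916 without PARP3-/- replicate 2, 0.0950 without PARP3-/- replicate 3 and 0.0907 without WT replicate 3. IQGAP1, a scaffold of actin and microtubule regulators, measured 461, 474 and 438 CPM in WT and 647, 662 and 638 CPM in PARP3-/- replicates (log2 fold change 0.50, standard error 0.08, adjusted p = 0.0177 in edgeR). Its adjusted p was 0.109, 0.104, 0.0560 and 0.115 without PARP3-/- replicate 2, PARP3-/- replicate 3, WT replicate 2 and WT replicate 3. AKT1 (log2 fold change 0.04, adjusted p = 0.956) and NCK2, which binds PINCH-1 (0.10, adjusted p = 0.618), were the most abundant partners that did not pass in edgeR.

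Of 23 tested actin linkers, 1 fell and 0 rose in edgeR, and 8 had an unadjusted p under 0.05. TNS1, encoding tensin-1, which binds integrin tails and actin, had 34, 39 and 35 counts in WT and 1, 0 and 0 in PARP3-/- libraries, a level at least 9.09-fold lower by the 3-count limit (edgeR, adjusted p = 0.00160). Like PARVG, TNS1 entered the test only through WT. The abundant filamin A (FLNA) had a log2 fold change of 0.17 (adjusted p = 0.625) and alpha-actinin-4 (ACTN4) of 0.26 (adjusted p = 0.261 in edgeR, 0.00638 with the replicate block). With the replicate block 11 of the 23 were higher, among them VCL, LPP and PDLIM5, and 3 lower, against 11.8% and 12.5% of all genes. With the block in DESeq2 9 were higher and 1 lower, against 7.55% and 7.93%. The median log2 fold change of this list was 0.17, and 19 of the 23 were above 0.

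Of 20 tested adhesion kinases and adaptors, 1 fell. ELMO1, which works with DOCK1 to activate Rac, had 189, 213 and 265 counts in WT and 0, 0 and 1 in PARP3-/- libraries, a level at least 56.0-fold lower (edgeR, adjusted p = 0.000162), and it too entered the test only through WT. Its partner DOCK1 had a log2 fold change of 0.10 (adjusted p = 0.786), focal adhesion kinase (PTK2) one of −0.0072 (adjusted p = 0.984) and SRC one of 0.014 (adjusted p = 0.983). PTPN11 and ARHGAP35, the most abundant of this list that did not pass, had log2 fold changes of 0.04 and 0.14.

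Of 11 tested genes that anchor microtubules at adhesions, ERC1 was lower, with 54.4 ± 2.13 CPM in WT and 42.1 ± 1.85 CPM in PARP3-/- cells (SD, n = 3) and no overlap (log2 fold change −0.37, standard error 0.07, adjusted p = 0.0374 in edgeR). It passed in 1 of the 6 fits with a library left out, the one without WT replicate 1, and the adjusted p reached 0.184 without WT replicate 3. CLASP1 and PPFIBP1 had log2 fold changes of −0.07 and 0.27 and did not pass in edgeR (adjusted p = 0.765 and 0.244), while PPFIBP1 passed with the replicate block (0.00267).

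Among 6 tested integrin beta subunits, ITGB5, part of a vitronectin receptor, rose, from 177 ± 4.59 CPM in WT to 315 ± 22.5 CPM in PARP3-/- cells (SD, n = 3). ITGB5 thus had a log2 fold change of 0.83 (95% interval 0.63 to 1.03, adjusted p = 0.00262 in edgeR). ITGB1, the most abundant integrin beta subunit here, had a log2 fold change of 0.31 (adjusted p = 0.108 in edgeR, 0.00243 with the replicate block) and ITGB8 one of −0.49 (adjusted p = 0.0975 and 0.000679). ITGB5 passed in all 6 edgeR fits with 1 library left out.

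Of 5 tested paralogues of the 10 genes, 0 passed in edgeR or DESeq2, and TLN2 and LPXN had an unadjusted p under 0.05 in edgeR. TLN2, the second talin, had a log2 fold change of −0.27 (adjusted p = 0.220 in edgeR, 0.00296 with the replicate block), opposite in sign to TLN1. TGFB1I1, the paxillin relative Hic-5, had one of 0.38 (adjusted p = 0.362 and 0.00134), opposite in sign to PXN. LPXN, the paxillin relative leupaxin, had one of 0.35 (adjusted p = 0.236 in edgeR, 0.0403 with the replicate block and 0.226 with the block in DESeq2). The kindlin FERMT1 had one of 0.10 (adjusted p = 0.774) and FERMT3 one of −0.44 (adjusted p = 0.569 in edgeR).

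**Figure D5:**
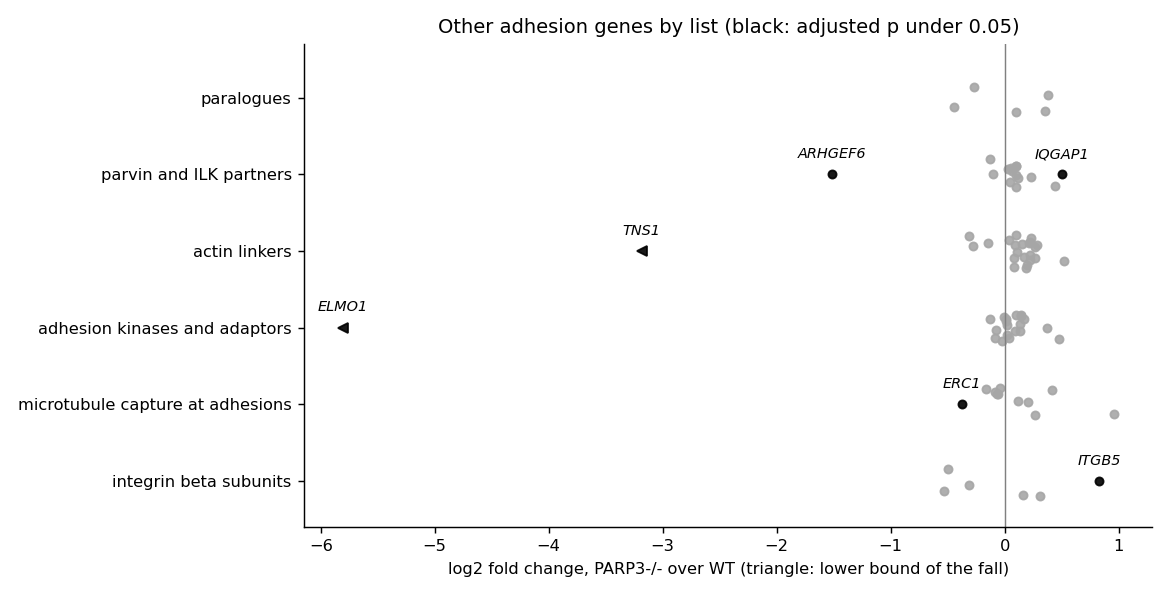
Log2 fold change of PARP3-/- over WT for the 80 tested adhesion genes in 6 lists, 1 point per gene. Black marks an adjusted p under 0.05 and triangles mark lower bounds of the fall. Most genes lie within 0.6 of 0, and the 6 that passed are named.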

How the data were processed

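RNA of 3 WT and 3 PARP3-/- LN229 cultures was sequenced. The labels' molecule field says polyA RNA, whereas their protocol describes strand-specific libraries of total RNA depleted of ribosomal RNA. The authors trimmed reads with cutadapt 1.10, removed ribosomal and spike-in reads with bowtie 2.2.8, aligned the rest to hg38 with STAR 2.5.3a and counted them with htseq-count 0.6.1p1 in union mode on Ensembl 91 genes, which drops reads shared by overlapping genes. The deposited counts are raw. A further 12 columns of normalized values and 3 of the authors' own comparison (fold change, p-value and adjusted p-value) were not used. The median transcript length deposited by the authors served as an alternative to GENCODE 44 canonical lengths.

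The counts were analysed in R 4.3.3 with edgeR 4.0.16 (filterByExpr with a minimum count of 10, TMM, quasi-likelihood test, Benjamini-Hochberg adjustment over all 17144 tested genes, adjusted p under 0.05). CPM values use TMM-scaled library sizes. Standard errors and 95% intervals were derived from the F statistic. Replicates were assigned from sample titles. Deviations from the genotype means correlated across genes by 0.676, 0.517 and 0.242 for the same-numbered libraries 1, 2 and 3. Those of different numbers correlated by −0.628 to 0.410. The 0.410 of WT replicate 2 with PARP3-/- replicate 3 exceeded the 0.242 of the replicate 3 pair. The values thus set replicate 1 apart but did not clearly pair replicates 2 and 3 by number. A replicate block was fitted as well. The numbers come from the titles, and what replicates of a number share is not given in the sources used here. The alternatives were DESeq2 1.42.0, median-of-ratios size factors, no filter, a mean count of at least 50, the replicate block, a stricter rule (adjusted p under 0.001 and log2 fold change beyond 1) and each library left out. DESeq2 with the block, both replicate 1 libraries left out and the authors' lengths were added after seeing the data. Scripts were tested on simulated counts.

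The genes and lists were chosen with earlier results of these data known. Genes are named when they are among the 10, are PARP3 or cell type markers, are tested within 500 kb of PARVB, are among the called or the 2 most abundant other genes of a list, or are most alike in pattern to PARVB or PARVA. Others, such as SRC, PTK2, DOCK1, FERMT1, LPXN and VCL, were named after their values were seen.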

Additional observations from a re-analysis of the deposited data

How the results depend on the processing

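The replicate block changed the most calls. With it PARVG and PXN were lower and 2 of the 10 genes higher, and of all genes 2143 were lower and 2023 higher, while 10 list genes were lower and 21 higher. It changed no call of PARVA, ILK, LIMS1, RSU1 or PARVG. DESeq2 gave 872 lower and 540 higher of all genes and 5 higher list genes. DESeq2 with the block gave 1 of the 10 genes higher, 1359 lower and 1295 higher of all genes, and 7 lower and 17 higher list genes. Without both replicate 1 libraries, 1 of the 10 genes was higher (TLN1). Of all genes, 1739 were then lower and 1536 higher, and 8 list genes were lower and 19 higher. With a mean count of at least 50 PARVG was no longer tested, which left 1 of the 10 genes (PARVB, whose fall chose the family and supports nothing), and 331 lower of all genes. The stricter rule left PARVB alone of the 10 genes (1), 1 list gene lower and 0 higher, and 76 lower and 6 higher of all genes. With 1 library left out, 1 to 2 of the 10 genes were lower (PARVB, and PARVG except without WT replicate 3) and 0 higher, 2 to 4 list genes lower and 1 to 3 higher, and 281 to 606 of all genes lower and 49 to 259 higher. The log2 ratio of summed parvins stayed between −0.018 and 0.052. It changed sign without WT replicate 1 (−0.018), without PARP3-/- replicate 2 (−0.0040) and with library totals not scaled by TMM (−0.012). The log2 ratio of PARVA to ILK stayed between −0.047 and 0.052. Its sign changed without WT replicate 2, WT replicate 3 or PARP3-/- replicate 1. LIMS1, at 0.0018, changed sign without both replicate 1 libraries (−0.0057), with a mean count of at least 50 (−0.0051), with no filter (−0.0028) and in fits without 1 library (−0.038 to 0.037). Z97055.2 ranged from −0.12 to 0.41 in those fits. ERC1 missed the threshold with no filter (adjusted p = 0.0750). Except where a filter removed a gene or a library was left out, the cause was not tested. Depth limited LIMS2, with 4 to 12 counts per library, which was not tested, and PARVG, whose fall is known only as a bound.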

Other observations

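Relatives of ARHGEF6, ELMO1 and TNS1 from the same lists were put beside them after their values were seen. ARHGEF7, which encodes beta-PIX, had one of 0.10 (standard error 0.07, adjusted p = 0.589 in edgeR) beside ARHGEF6. ELMO2 had one of 0.02 (adjusted p = 0.944) beside ELMO1, and TNS3 one of 0.23 (adjusted p = 0.276 in edgeR, 0.0216 with the replicate block) and TNS2 one of 0.11 (0.844 and 0.220) beside TNS1. In CPM, ARHGEF7 went from 35.1 ± 1.38 to 37.6 ± 0.858, ELMO2 from 75.5 ± 3.36 to 76.7 ± 1.78 and TNS3 from 453 ± 28.5 to 530.2 ± 23.8 (SD, n = 3 each).

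GIT1, a scaffold that binds the PIX proteins and paxillin, measured 37.9, 40.2 and 38.0 CPM in WT and 45.5, 57.4 and 54.6 CPM in PARP3-/- replicates 1, 2 and 3 without overlap, with a log2 fold change of 0.44 (adjusted p = 0.0636 in edgeR, 0.000531 with the replicate block and 0.00675 in DESeq2). KANK2 and KANK3, which couple talin to the machinery that captures microtubules, had log2 fold changes of 0.42 and 0.96 (adjusted p = 0.239 and 0.0630 in edgeR, 0.000251 and 0.0106 with the replicate block). In DESeq2 KANK3 passed without the block (adjusted p = 0.0485) but not with it (0.133). KANK2 passed in DESeq2 with the block (adjusted p = 8.6e-07) but not without it (0.168). KANK1 had a log2 fold change of 0.21 (adjusted p = 0.825 in edgeR, 0.0508 with the replicate block). GIT1 and the KANK genes were named after their values were seen.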
